A study of Mus musculus with 8 samples.

Results

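The genes described here are 43 receptor tyrosine kinase genes of the mouse, 14 of them Eph receptors and 29 other kinases. A gene's members are the regions of the authors' deposited H3K27me3 table that overlap its RefSeq span extended by 2 kb on both sides. By that rule 857 of the 265968 listed regions belong to the family, 192 at Eph receptors and 665 at the others, and 0 of them fall in more than 1 member. All 43 symbols matched the RefSeq annotation of GRCm38.

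Chromatin immunoprecipitation with sequencing measured H3K27me3, trimethylated lysine 27 of histone H3, in 3T3 cells, an immortalised mouse embryonic fibroblast line. The labels give 3 libraries with a control construct, 3 with an NNMT overexpression construct and 1 input library of each; NNMT is nicotinamide N-methyltransferase, an enzyme that spends the methyl donor S-adenosylmethionine. Both constructs shared the same culture, 48 h at 10 µM methionine with 10% serum that had been dialyzed. Chromatin was fixed with 1% formaldehyde and cut with micrococcal nuclease, and the antibody was clone C36B11. The design sets the mark of one construct against that of the other.

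The deposited table gives each region 3 values for the set listed first and 3 for the set listed second, and names neither. Directions below are therefore those of the first and second set, and no direction is tied to NNMT. The libraries are given in listing order, since the table does not link them to samples, and no test was made. Each gene's regions were summed whole, the same regions in every library, and the error of a ratio is its range over the 9 pairs of a first-set and a second-set library. The values are whole numbers that appear to be rescaled rather than raw read counts, so depth is unknown; summed over all listed regions they ran from 39899303 to 41971892 in the first set and from 35565866 to 36958436 in the second. The table holds only regions with a p of 0.1 or lower in the authors' comparison, so a gene without a listed region may still carry the mark. The sources used here do not say whether input was subtracted, so a difference in DNA copy number and one in the mark cannot be told apart.

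Receptor tyrosine kinases span the cell membrane, bind a ligand outside and, once paired, phosphorylate each other's tails to start the Ras, PI3-kinase and phospholipase C pathways. Eph receptors are the largest subfamily; their ephrin ligands sit on neighbouring cells, and the pair steers axons and sorts cells at tissue borders. H3K27me3 is placed by Polycomb repressive complex 2 and marks silent genes, above all developmental genes that a cell type does not use, often at promoters rich in the dinucleotide CG.

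Of the 43 genes, 21 carried at least 1 listed region (48.8%, against 32.2% of all 20340 named genes), 7 of 14 Eph receptors and 14 of 29 other kinases. Values summed over a gene's regions were higher in the first set for 12 of the 21, or 57.1%, against 69.7% of named genes with regions. They were higher in the second set for 9, against 30.2%. In 9 genes all 3 first-set sums lay above all 3 of the second (42.9%, against 59.7%), and in 9 the reverse held (42.9%, against 22.0%). The remaining 3, Flt3, Insrr and Ephb3, overlapped. The median log2 ratio of first over second set was 0.12 over the 21 genes and 0.38 over all named genes with regions. Rescaling the libraries to equal sums lowered the median log2 ratio over named genes by 0.19; it turned Flt3 and Insrr to the second set and left 10 of the 21 kinase genes higher in the first.

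**Figure D1:**
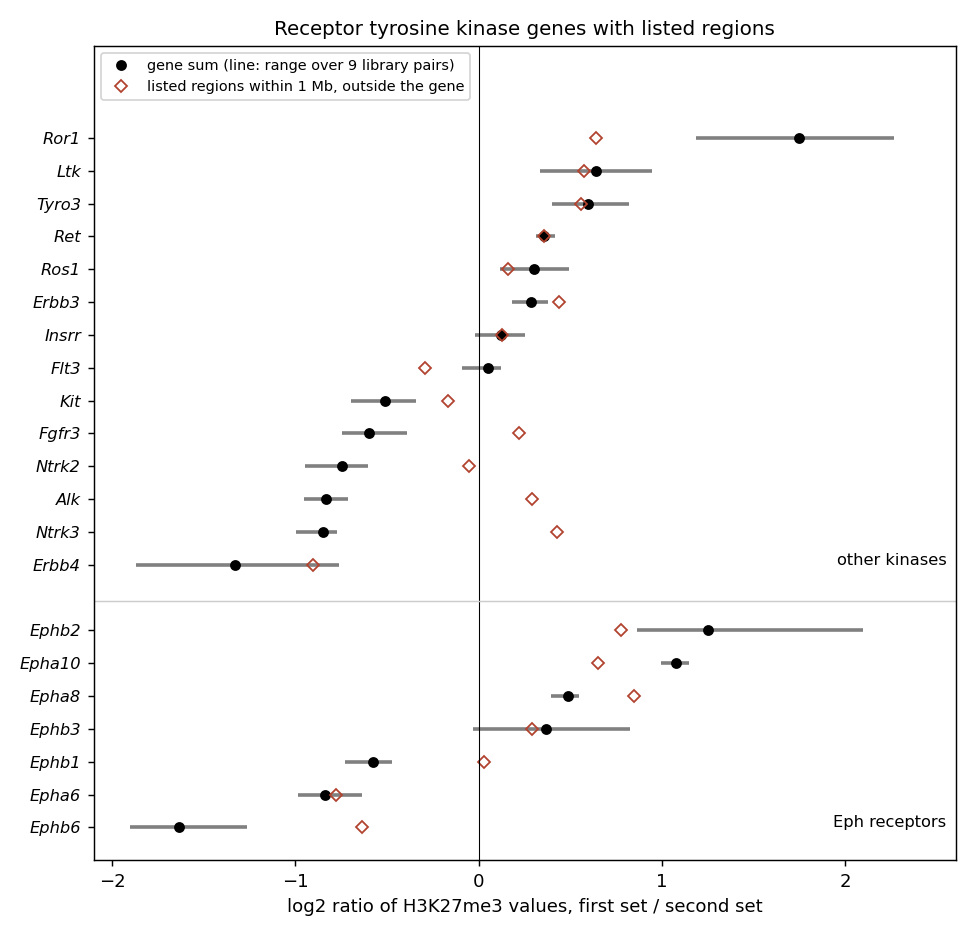
Log2 ratio (first over second set) of the summed values of each of the 21 genes with listed regions, as black points with lines for the range over 9 library pairs, and of the listed regions within 1 Mb outside the gene, as open diamonds. Ratios run from -1.63 at Ephb6 to 1.75 at Ror1, and at Alk, Ntrk3, Fgfr3, Ephb1 and Flt3 the point and the diamond lie on opposite sides of 0.

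Counted by region and pooled, the long members leaned to the second set and the short ones did not, with exceptions among single genes. Of the 857 regions, 144 were higher in the first set (16.8%, against 59.5% of all listed regions) and 713 in the second (against 40.5%). Alk alone held 408 of them, and without Alk 127 of 449 were higher in the first set (28.3%). The 7 genes of 300 kb or longer with regions had 32 of 664 regions higher in the first set, and the 14 shorter ones 112 of 193 (58.0%), near the share over all listed regions. Exceptions among the shorter genes were Kit, Fgfr3 and Ephb6, with 42 of 44, 5 of 5 and 6 of 6 regions higher in the second set. Among the longer ones, Ror1 had 3 of 3 higher in the first. The sets did not overlap in 587 of the 857 regions (68.5%, against 65.1% of all listed regions).

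Promoters were mostly outside the listed regions. RefSeq promoter windows on GRCm38.p6, 250 bases before to 50 after a start site, were at hand for 37 of the 43 genes; Ntrk3, Ret, Erbb3, Fgfr1, Insr and Insrr had no entry. A listed region overlapped 1 of their 44 windows (2.27%), that of Ros1, against 11.4% of all windows in the RefSeq table. The windows of 7 genes, Kit, Flt3, Ros1, Fgfr3, Epha8, Epha10 and Ephb3, had a listed region within 1 kb of a start site. Taking the richest window of each gene, the CG dinucleotide occurred a median of 21 times in the 17 genes with regions and 16 times in the 20 without, against 7 over all windows. The 3 windows below show the range, with every CG in capitals, each read 5′ to 3′ on the gene's own strand, which is the minus strand for all of them. Ros1 is shown because its window was the one overlapped; Epha8, the richest in CG, and Alk, the gene with most regions, were chosen after their values were seen.
Ros1: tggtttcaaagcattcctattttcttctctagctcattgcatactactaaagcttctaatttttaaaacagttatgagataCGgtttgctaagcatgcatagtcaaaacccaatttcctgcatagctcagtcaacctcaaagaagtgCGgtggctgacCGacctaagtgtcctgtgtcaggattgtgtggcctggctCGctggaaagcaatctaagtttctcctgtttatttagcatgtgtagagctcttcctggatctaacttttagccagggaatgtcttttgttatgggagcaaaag
Epha8: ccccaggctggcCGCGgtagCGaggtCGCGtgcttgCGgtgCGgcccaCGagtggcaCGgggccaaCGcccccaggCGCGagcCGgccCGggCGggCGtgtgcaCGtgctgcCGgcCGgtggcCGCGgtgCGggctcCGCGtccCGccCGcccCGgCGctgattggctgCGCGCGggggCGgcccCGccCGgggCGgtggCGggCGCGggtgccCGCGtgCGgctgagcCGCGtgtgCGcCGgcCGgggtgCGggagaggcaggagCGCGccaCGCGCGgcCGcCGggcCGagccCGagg
Alk: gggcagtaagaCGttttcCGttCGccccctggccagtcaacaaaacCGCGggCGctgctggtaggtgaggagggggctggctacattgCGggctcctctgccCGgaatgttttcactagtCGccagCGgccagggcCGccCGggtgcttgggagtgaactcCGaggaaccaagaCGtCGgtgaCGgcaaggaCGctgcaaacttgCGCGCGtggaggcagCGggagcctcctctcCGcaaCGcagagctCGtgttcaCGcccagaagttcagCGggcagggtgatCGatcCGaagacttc
The Ros1 window (chr10:52195195-52195494) holds 4 CG, a number reached by 68.6% of all windows. The region over it had values of 42, 27 and 32 in the first set and 31, 105 and 41 in the second, which overlap. The Epha8 window (chr4:136956767-136957066) holds 56 CG, reached by 0.195% of windows. Of the listed regions, 2 lay within 1 kb of its start site, one on either side of the window, and the upstream one (chr4:136957351-136957850) had values of 72, 92 and 85 against 50, 63 and 61 in the authors' deposited table. The Alk window (chr17:72604258-72604557) holds 28 CG, reached by 14.2% of windows, and its nearest listed region began 1.31 kb into the gene.

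Alk and Ltk, a pair of related receptors for the ALKAL ligands known from neural crest derivatives, went opposite ways. Alk (chromosome 17, 71868988 to 72604702) had 408 regions, together as long as 42.2% of its extended span. Its summed values in the authors' deposited table were 37173, 34721 and 32910 in the first set and 62213, 63804 and 60876 in the second. The second set was 1.78-fold higher (1.64 to 1.94 over pairs), with 391 of the regions higher there. The region with the largest sum, 9.3 kb long and about 400 kb into the gene (chromosome 17, 72199701 to 72209000), had values of 873, 789 and 841 against 2139, 2120 and 2188 in the authors' deposited table, with no overlap. Ltk (chromosome 2, 119751326 to 119760431) is a short gene with 4 regions, all higher in the first set. Its sums were 337, 363 and 402 in the first set and 232, 267 and 208 in the second, a 1.56-fold difference (1.26 to 1.93 over pairs) without overlap.

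The lean to the second set at Alk gave way to the first set past the downstream end, but faded without a clear edge at the upstream end. In bins of 25 kb along the gene, 28 of 30 were higher in the second set, with a median log2 ratio of -0.99. The lowest, at 225 to 250 kb from the start site, stood at -1.50. The exceptions were the bins at 550 to 575 and 575 to 600 kb, at 0.28 and 0.49, with 4 and 8 listed regions. The first bins of the gene, at 0 to 25 and 25 to 50 kb, stood at -0.47 and -0.30. In the 250 kb upstream, the 10 bins lay between -0.31 and 0.27, and 4 of them were higher in the second set. Of the upstream bins above 0, all but the highest were smaller than the shift of 0.19 that rescaling brings. The 6 bins with regions beyond 250 kb upstream were higher in the first set, by 0.87 to 3.30. So were all 11 bins with regions downstream of the gene, by 0.27 to 1.07.

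**Figure D2:**
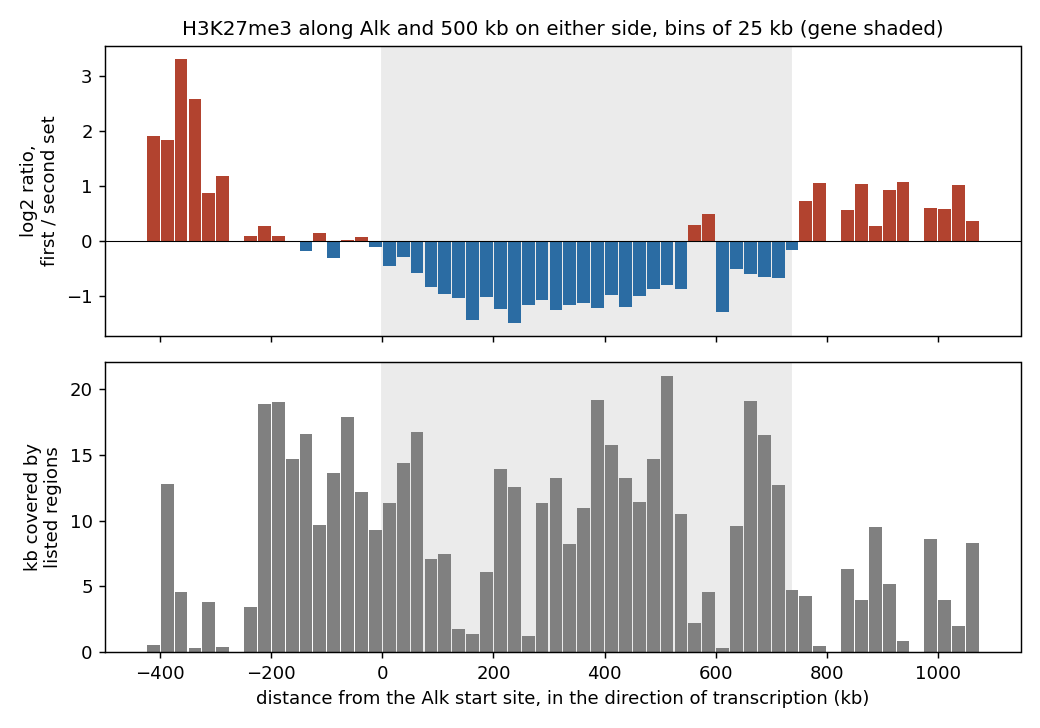
Log2 ratio of summed values (upper panel) and length covered by listed regions (lower panel) in bins of 25 kb against distance from the Alk start site in the direction of transcription, with the gene span shaded and 500 kb shown on either side. The second set is higher in 28 of the 30 bins of the gene, while the 11 downstream bins are all higher in the first.

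The neurotrophin receptor genes carried more signal in the second set. Ntrk3, the receptor of neurotrophin 3 (chromosome 7, 78179986 to 78581034), had sums of 4804, 4809 and 4240 in the first set and 8228, 8464 and 8302 in the second. The second set was 1.80-fold higher (1.71 to 2.00 over pairs), in 75 of 76 regions. Those regions crowded to one end of the gene: when its extended span is divided into 4 equal stretches, 52 of the 76 lay in the stretch of highest coordinates. Ntrk2, the receptor of BDNF (chromosome 13, 58806472 to 59133970), had sums of 1306, 1362 and 1135 against 2068, 2188 and 2131, again without overlap. That was 1.68-fold higher in the second set (1.52 to 1.93 over pairs), in 26 of 28 regions. Of the 28, only 2 lay in the first of 4 equal stretches from the start site.

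Kit and Flt3, receptors of blood and germ cell progenitors with related kinase domains, differed from each other. Kit, the stem cell factor receptor (chromosome 5, 75574987 to 75656722), had sums of 4528, 4761 and 4401 in the first set and 6345, 7133 and 6029 in the second. The sets did not overlap, and the second was 1.42-fold higher (1.27 to 1.62 over pairs), with 42 of 44 regions on that side. In 4 equal stretches from the start site, Kit held 14, 11, 17 and 2 regions. At Flt3, on the same chromosome, sums ran from 2550 to 2806 in the first set and from 2580 to 2719 in the second, and overlapped. Its 24 regions were split, 14 higher in the first set and 10 in the second, and 1 stood at 2.51-fold in the first set with values of 67, 81 and 44 against 30, 34 and 12 in the authors' deposited table.

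Ret and Ros1 were higher in the first set. Ret, the receptor of GDNF family ligands in kidney and enteric neurons (chromosome 6, 118151748 to 118197744), had regions whose whole length equalled 80.8% of its extended span. That length includes a flank region of 5.7 kb (118199601 to 118205300) that lay mostly beyond the extended span. This region gave 4251 of the first-set total of 29818 and 3295 of the second-set total of 23312. The sums of Ret were 10062, 9914 and 9842 in the first set and 7856, 7916 and 7540 in the second. That is 1.28-fold (1.24 to 1.33 over pairs), without overlap and in 22 of 25 regions. Ros1, a receptor known from epididymis epithelium (chromosome 10, 52044863 to 52195398), had sums of 1670, 1616 and 1595 against 1185, 1472 and 1309. The first set was 1.23-fold higher (1.08 to 1.41 over pairs), but only 12 of the 20 regions lay on that side. Of the Ros1 regions, 9 had all first-set values above the second and 6 the reverse, and regions of both directions occurred near its start and near its end.

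Of the FGF receptor genes 1 of 4 carried regions, and of the ErbB receptor genes 2 of 4, beside 32.2% of all named genes. Fgfr3, which restrains growth plate cartilage (chromosome 5, 33721724 to 33737068), had sums of 1153, 1220 and 1119 in the first set and 1876, 1813 and 1600 in the second. The second set was 1.51-fold higher (1.31 to 1.68 over pairs) in all 5 regions. Its 2 longest regions, of 3.15 and 2.85 kb, lay in the gene body and stood at 1.48-fold and 1.57-fold. Erbb3, a neuregulin receptor with little kinase activity of its own (chromosome 10, 128567523 to 128589635), had sums of 3281, 3446 and 3116 against 2652, 2746 and 2677, 1.22-fold higher in the first set (1.13 to 1.30 over pairs). The sums of Erbb3 did not overlap, but only 3 of its 8 regions were apart by themselves. Erbb4, a neuregulin receptor of heart and brain and the longest member at 1077 kb, held 6 short regions that covered 0.95 kb. The values of Erbb4 were low, 85, 47 and 60 in the first set and 145, 174 and 164 in the second, and 2.51-fold higher in the second (1.70 to 3.65 over pairs). All 6 lay within 113 kb of its start site.

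Insrr, Ror1 and Tyro3 completed the other kinases with regions. Insrr, the insulin receptor-related receptor that senses alkaline pH, had regions that equalled 78.0% of its extended span in length. Its sums ran from 5503 to 5929 in the first set and from 4979 to 5582 in the second, and overlapped. Tyro3, which binds GAS6 and protein S, had 1 region of 2.3 kb overlapping the 5′ end of its annotated span (chromosome 2, 119796101 to 119798400). The values there were 554, 541 and 556 against 368, 315 and 410, 1.51-fold higher in the first set (1.32 to 1.76 over pairs) and without overlap. Ror1, a WNT5A receptor, had 3 regions covering 0.25 kb about 3 kb into the gene. Its sums of 40, 43 and 47 against 17, 12 and 9 lie under the total of 200 set for naming values, and are given only because its ratio, 3.36-fold (2.28 to 4.80 over pairs), was the highest of the family with the flank of 2 kb. With a flank of 5 kb its log2 ratio fell from 1.75 to 0.69, below those of Ephb2 (1.13) and Epha10 (1.08).

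Among Eph receptors, 4 were higher in the first set, and 3 of these lie on chromosome 4. Epha10, a receptor whose kinase domain is thought inactive (chromosome 4, 124881530 to 124917801), had sums of 3039, 3072 and 2965 in the first set and 1436, 1386 and 1489 in the second. That is 2.11-fold (1.99 to 2.22 over pairs), and all 21 regions were higher in the first set, 17 of them without overlap. Its longest region, of 4.2 kb (chromosome 4, 124895351 to 124899550), had values of 1031, 1023 and 984 against 599, 460 and 475 in the authors' deposited table. Epha8, an axon guidance receptor of the midbrain (chromosome 4, 136929419 to 136956859), had regions that equalled 76.8% of its extended span in length. Its sums were 5830, 5826 and 5428 against 3983, 4131 and 4075, 1.40-fold higher in the first set (1.31 to 1.46 over pairs), in 18 of 19 regions. Ephb2, a synapse and gut crypt receptor (chromosome 4, 136647536 to 136836326), held no region inside its span. Only 2 regions touched its upstream flank, with sums of 192, 199 and 200 against 46, 97 and 105, 2.38-fold higher in the first set (1.82 to 4.28 over pairs). The larger (chromosome 4, 136838201 to 136839050) lay mostly beyond the extended span but was counted whole. It gave 477 of the 591 in the first set and 192 of the 248 in the second. With regions assigned by their midpoint the log2 ratio of Ephb2 was 1.01, against 1.25. Ephb3, on chromosome 16, likewise had 1 upstream region, with values from 323 to 374 in the first set and from 211 to 330 in the second, which overlapped.

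The 3 Eph receptor genes higher in the second set were Ephb6, Epha6 and Ephb1. Ephb6, a receptor without kinase activity known from T cells (chromosome 6, 41603834 to 41620509), showed the largest difference in that direction. Its sums were 224, 290 and 249 in the first set and 697, 830 and 840 in the second, 3.10-fold (2.40 to 3.74 over pairs). Of its 6 regions 4 lay outside the span, and 2 of the 6 also reached the extended span of its neighbour Trpv6. The largest, of 2.65 kb upstream (chromosome 6, 41599301 to 41601950), met the extended span only with its end but was counted whole. It gave 596 of the 763 in the first set and 1761 of the 2367 in the second. Without the flank the log2 ratio was -1.86, against -1.63. Within 1 Mb, 0 of 159 regions at lower coordinates and 40 of 223 at higher ones were higher in the first set (-1.62 and -0.34). Epha6, a receptor of retinal and hippocampal neurons (chromosome 16, 59641433 to 60610911), had sums of 2655, 2410 and 2331 against 4471, 4607 and 4123, 1.78-fold higher in the second set (1.55 to 1.98 over pairs). All 60 of its regions fell in the last of 4 equal stretches of the gene, and the nearest lay 772 kb from the start site. One of them (chromosome 16, 59810901 to 59811250) had values of 9, 0 and 6 against 87, 87 and 58 in the authors' deposited table, the widest gap among member regions with a total of at least 200. Ephb1, a guidance receptor for retinal and cortical axons (chromosome 9, 101922128 to 102354693), had sums of 5057, 5252 and 4668 against 7279, 7741 and 7276. The second set was 1.49-fold higher (1.39 to 1.66 over pairs), in 77 of 83 regions, which ran along the gene, 37 of them in the stretch next to the start site when it is divided into 4.

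**Figure D3:**
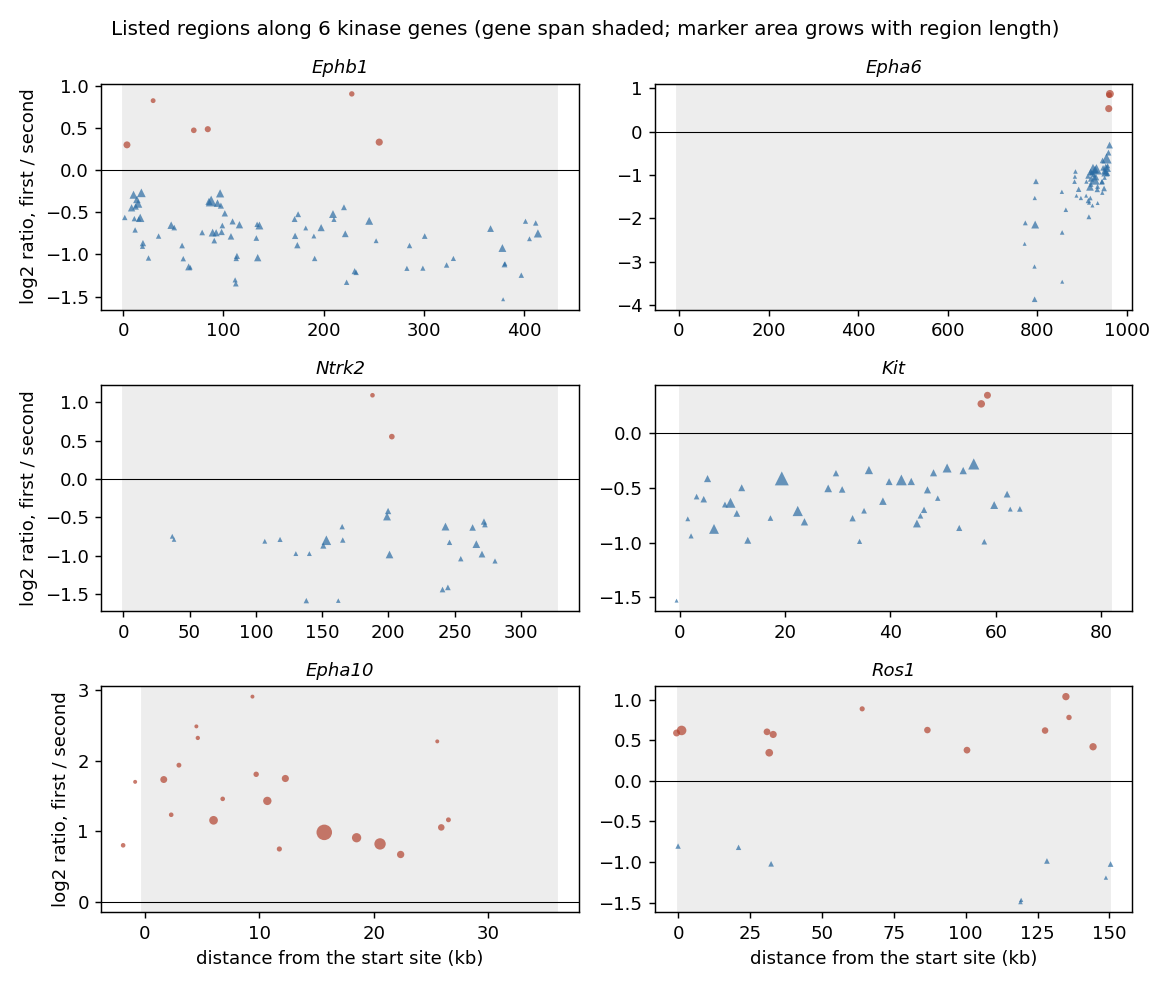
Log2 ratio of each listed region against its distance from the start site for 6 kinase genes, with circles for regions higher in the first set, triangles for those higher in the second, the gene span shaded and marker area growing with region length. Regions run the length of Ephb1, stand only beyond 772 kb in Epha6, all lie above 0 in Epha10 and fall on both sides in Ros1.

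**Figure D4:**
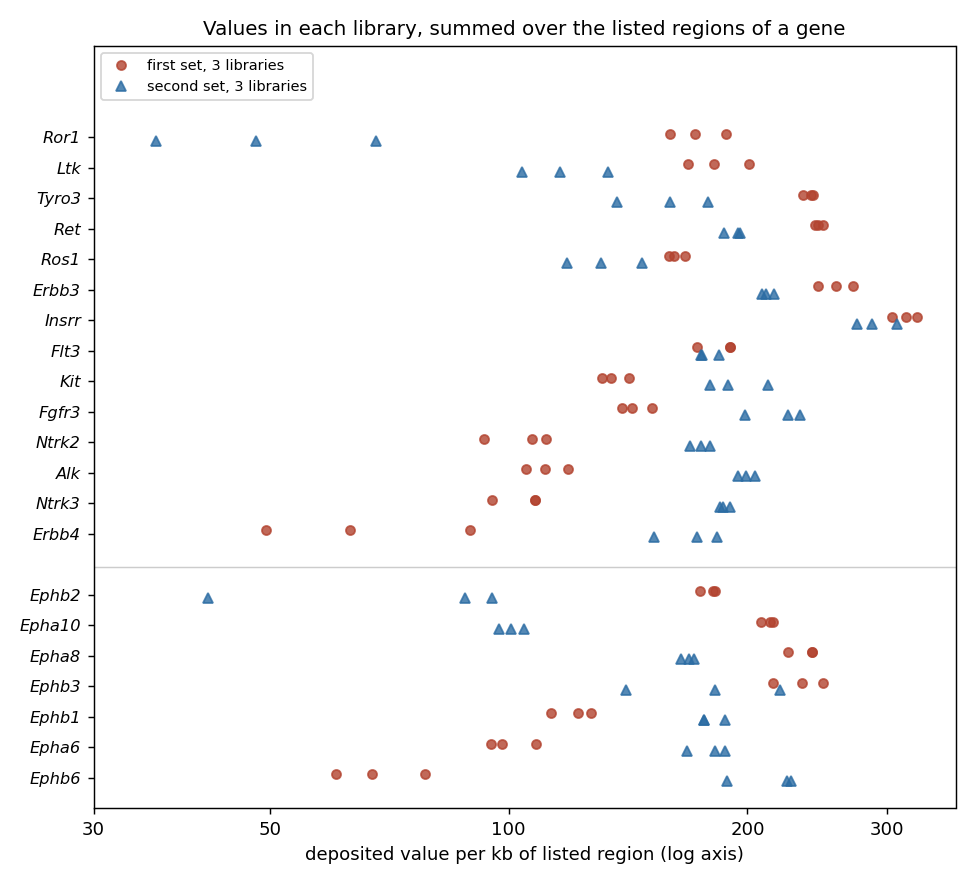
Deposited value per kb of listed region (log axis) in each of the 6 libraries for the 21 genes with regions, with circles for the first set and triangles for the second. The sets stand apart in 18 genes and overlap in Flt3, Insrr and Ephb3.

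Set side by side, Eph receptors and the other kinases had equal shares of genes in each direction. Among genes with regions, 4 of 7 Eph receptors and 8 of 14 others were higher in the first set, 57.1% of each. The median log2 ratio was 0.37 in Eph receptors (range -1.63 to 1.25) and 0.09 in the others (-1.33 to 1.75), and these ranges overlap over most of their length. By region the Eph receptors leaned less to the second set: 51 of 192 regions were higher in the first set (26.6%), against 93 of 665 in the others. That gap rested on Alk, since without it 76 of 257 regions of the other kinases, 29.6%, were higher in the first set. Summed over all regions, the Eph receptors gave 17320, 17423 and 16193 in the first set and 18123, 19122 and 18181 in the second, a log2 ratio of -0.12 (-0.24 to -0.06 over pairs). The other kinases gave 73728, 71148 and 67707 against 100744, 104605 and 99039, a log2 ratio of -0.52 (-0.63 to -0.43 over pairs), which moved to -0.12 without Alk. No test of the difference between the groups was made, since genes are not replicates.

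The Eph receptors of chromosome 4 differed from those elsewhere. The 3 on chromosome 4 with regions gave 41 of 42 regions higher in the first set and a summed log2 ratio of 0.68 (0.60 to 0.74 over pairs). The 4 elsewhere gave 10 of 150 and a summed log2 ratio of -0.68 (-0.83 to -0.59 over pairs). Over the whole of chromosome 4, 86.0% of 15018 listed regions were higher in the first set. On chromosome 16, where Epha6 and Ephb3 lie, the share was 33.6% of 10076, yet Ephb3 was itself higher in the first set, with overlapping values. The share was 56.2% on chromosome 9 and 55.2% on chromosome 6, although Ephb1 and Ephb6, which lie there, were higher in the second set. The part of the chromosome in the Eph values was not tested. By type, 3 of 9 EphA and 4 of 5 EphB genes carried regions, beside 32.2% of all named genes, with summed log2 ratios of 0.18 and -0.57. Among the EphB genes, Ephb2 and Ephb3 had regions only in the flank, and Ephb1 held 83 of the 92 regions, so the EphB ratio is mainly that of Ephb1.

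**Figure D5:**
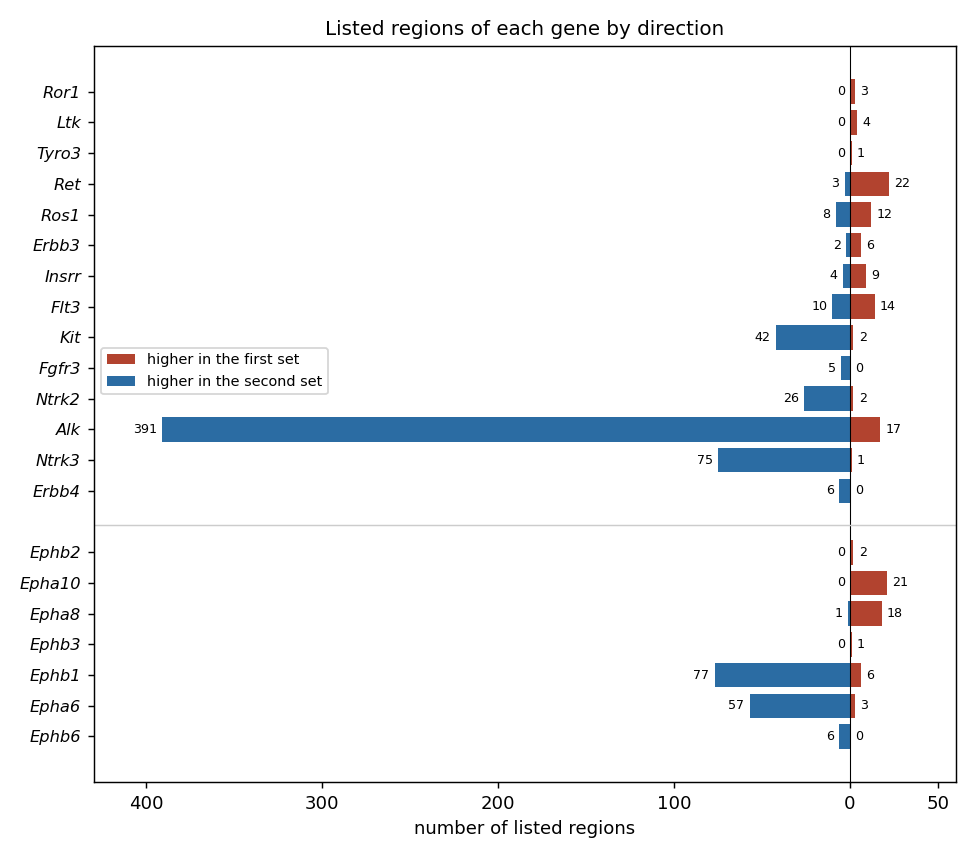
Number of listed regions of each of the 21 genes, with bars to the right of 0 for regions higher in the first set and to the left for those higher in the second. Alk stands out with 391 regions higher in the second set, and Epha10, Epha8 and Ret have nearly all of theirs higher in the first.

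Regions around a gene often, but not always, had the gene's direction. Summed over the listed regions within 1 Mb on either side, the surroundings were on the same side as the gene in 16 of 21 cases, 11 of 12 genes higher in the first set and 5 of 9 higher in the second. The same share was not computed for all named genes. Of those with regions, 69.7% were higher in the first set, so the counts alone do not set the kinase genes apart. Which genes share a side with their surroundings also depends on the scaling, as given below. Around Epha10, 735 of 748 regions were higher in the first set (log2 ratio 0.65, against 1.07 at the gene). At Epha8 these were 311 of 312 (0.85 against 0.49) and at Ephb2 419 of 421 (0.78 against 1.25). Around Epha6 all 37 regions were higher in the second set (-0.78 against -0.84), and around Erbb4 79 of 82 (-0.90 against -1.33). At Ret and Insrr the ratios of gene and surroundings differed by less than 0.01.

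Genes that went against their surroundings were Ntrk3, Alk, Fgfr3, Ephb1 and Flt3. Of 285 regions around Ntrk3, 244 were higher in the first set (log2 ratio 0.42, against -0.85 at the gene). All but 1 of the 285 lay at higher coordinates than the gene, and that 1 stood at -1.41. Around Alk regions higher in the first set were 344 of 443 (0.29 against -0.83), with both sides above 0 (0.76 and 0.23). Around Fgfr3 they were 286 of 405 (0.22 against -0.60), but the sides differed. At higher coordinates they were 196 of 216 (0.90), and at lower ones 90 of 189 (-0.09), the direction of the gene. At Ephb1 the surroundings together were near even, with 118 of 248 regions higher in the first set and a log2 ratio of 0.03 against -0.57. There too the sides differed, with 16 of 96 at lower coordinates (-0.42) and 102 of 152 at higher ones (0.20). The shift of 0.19 that rescaling brings exceeds the log2 ratios of the surroundings of Ephb1, Insrr and Ros1, which would change sign. Flt3, whose own sums overlapped, had 240 of 321 surrounding regions higher in the second set, the side to which rescaling turned the gene itself.

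Gene length moved with direction. Of 7 members with regions that were 300 kb or longer, 6 were higher in the second set, and Ror1 was the exception. Of 14 shorter ones, 11 were higher in the first. The lean was also present over all named genes with regions, where 39.4% of those of 300 kb or longer and 71.2% of shorter ones were higher in the first set.

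The 22 genes with no listed region included receptors well known from fibroblasts, such as Fgfr1, Igf1r, Insr, Axl, Ddr2, Egfr and Epha2. These bind FGFs, insulin-like growth factors, insulin, GAS6, fibrillar collagen, EGF and ephrin-A1. Met and Mst1r, receptors of hepatocyte growth factor and its relative MSP, were also without one, as were Erbb2, the ErbB partner with no ligand of its own, and the FGF receptors Fgfr2 and Fgfr4. So were Ror2, a WNT5A receptor, Musk, Mertk, which clears dying cells, and the collagen receptor Ddr1. Of the Eph receptors these were Epha1, Epha3, Epha4, Epha5, Epha7 and Ephb4, the last known from veins. Their spans had a median length of 104 kb, against 69.7 kb for genes with regions. Some of the 22 stood among many listed regions. Igf1r, the receptor of insulin-like growth factors, had 720 listed regions within 1 Mb, 679 of them higher in the first set. Musk, the agrin-responsive kinase of the neuromuscular junction, had 494 within 1 Mb, 493 of them higher in the first set at a log2 ratio of 1.46, and 0 in its own extended span. Around Epha3, an axon guidance receptor, all 48 regions within 1 Mb were higher in the second set, at a log2 ratio of -1.27. Epha5 and Epha7, receptors of developing brain, had 0 regions within 1 Mb, and the nearest to the Epha7 start site lay 3275 kb away.

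The partners of these receptors are read beside the 32.2% of all named genes that carried regions, of which 69.7% were higher in the first set. Of 8 ephrin genes 2 did, Efna2 and Efna3, both higher in the first set, at 1.40-fold and 1.48-fold. Of 34 ligands of the other kinases 14 did, 10 higher in the first set and 4 in the second, with a median log2 ratio of 0.23. The ALK ligand gene Alkal1 was 1.95-fold higher in the first set in all 15 regions, whereas Alk itself was higher in the second. Gas6, a ligand of TYRO3, was 1.93-fold higher in the first set in all 12 regions, the direction of Tyro3. Nrg1, a ligand of ERBB3 and ERBB4, was 1.63-fold higher in the second set, in 106 of 116 regions, and Igf2 2.57-fold. The other neuregulin genes with regions went the other way. Nrg2 was 1.21-fold higher in the first set, in 74 of 91 regions, and Nrg4 1.52-fold, in 29 of 32. Of 13 co-receptors and partners 9 carried regions, 4 higher in the first set and 5 in the second. Nell2, a ligand of the ROS1 receptor, was among them at 2.01-fold in the second set, in 91 of 91 regions. Of 36 adaptors and signal transducers 8 carried regions, 7 of them higher in the first set, and of 21 inhibitors 1 did, the phosphatase gene Ptprj, at 1.64-fold in the first set.

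As a check of the cells' label, 1 of 15 fibroblast marker genes, Fap, carried a listed region. Regions occurred at 6 of 10 neuronal, 6 of 9 endothelial, 7 of 10 epithelial and 9 of 10 immune and blood markers. Over all named genes the share with regions was 32.2%. Summed values were higher in the first set for 6, 6, 4 and 8 of these markers, beside 69.7% of named genes with regions. Only regions within the authors' p limit are listed, so a marker gene without one may still carry the mark. The counts therefore cannot decide whether the label of the cells is right.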

How the data were processed

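H3K27me3 was measured in 6 libraries, with 2 inputs not analysed here. Per the submitters' processing notes, CASAVA, Trimmomatic 0.36, BWA 0.7.17 and the build GRCm38 were used; the sources used here give neither the region caller nor the normalization. The authors deposited 1 table of 265968 regions with 6 whole-number values and a −log10 p per region, which was not used except in alternatives.

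Regions were assigned to genes by 1 bp of overlap with the RefSeq span plus 2 kb, and summed per library; log2 ratios are of sums with a pseudocount of 1. Named genes exclude placeholder symbols. Values per library are given for genes whose sets do not overlap, up to 8 per direction and class, with a total of at least 200, and for the region with the largest sum or ratio; sequences by promoter overlap. The members and lists were chosen with earlier results of these data known. Overlap and sums were tested on simulated data. The labels call the libraries biological replicates. Python 3.11.15, numpy 2.4.6, pandas 2.3.3 and matplotlib 3.10.9 were used.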

Additional observations from a re-analysis of the deposited data

How the results depend on the processing

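Of 145 recomputed counts and class ratios, 134 stayed within 1.5 times the value given or within the spread between libraries. Some of these could not change, so the 134 do not measure stability. The pseudocount enters no count, and rescaling or leaving out a library cannot alter the number of genes with a region. Without the flank, Ephb2 and Ephb3 had no region and 2 Eph receptor genes were higher in the first set; without those of chromosome 4, an alternative chosen after seeing the data, 1 was, and the Eph log2 ratio was -0.68. At the authors' p under 0.01, 60 member regions were higher in the first set and 408 in the second, and the log2 ratio of the other kinases was -0.64. It was -0.46 with a flank of 5 kb. Leaving out Alk, also chosen after seeing the data, gave 322 regions higher in the second set and -0.12. Rescaling the libraries to equal sums gave -0.32 for Eph receptors and -0.71 for the others. Flt3 turned to -0.011 at p under 0.01 and -0.15 after rescaling, and Insrr to -0.069 after rescaling; these were 3 of 292 gene ratios recomputed, and 30 others moved beyond the spread between libraries without changing sign. Rescaling moved 15 of those 30, among them Ret to 0.16, Ros1 to 0.11 and Erbb3 to 0.09, and left 8 genes apart with the first set higher and 10 with the second. A flank of 5 kb lowered Ror1 to 0.69. The causes were not tested, apart from the members or regions that each setting leaves out. Leaving out each library in turn moved the Eph log2 ratio between -0.14 and -0.09 and that of the other kinases between -0.55 and -0.49. The genes apart with the first set higher numbered 9 to 11. No paired analysis was possible because the table does not name its libraries. Low values limit Ror1 and Erbb4 most.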

Other observations

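Of 13 receptor tyrosine kinase genes outside the 43, 8 carried regions (61.5%, against 32.2% of all named genes). Of these 6 were higher in the first set and 2 in the second, beside 69.7% of named genes with regions higher in the first. Lmtk3, a neuronal kinase, was 2.14-fold higher in the first set in all 10 regions, and Tek, the angiopoietin receptor, 1.83-fold in all 36. Aatk, a kinase of differentiating neurons, was 1.35-fold higher in the first set. Flt4, the receptor of lymphatic endothelium, had 8 regions higher in the first set and 10 in the second, and its sums differed by 1.08-fold towards the second.

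Names of the regions in the deposited table carry running numbers in genomic order, up to 470008, of which 265968 are listed; the sources used here do not say what the missing numbers stand for. Between the first and the last region of Alk 606 numbers run and 408 are listed, or 67.3%. At Ntrk3 these are 76 of 100, at Ephb1 83 of 166, at Kit 44 of 84 and at Flt3 24 of 71.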
